A study of Mus musculus with 16 samples.

Results

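The genes described here encode 7 subunits of the voltage-gated sodium, calcium and pacemaker channels of the heart, and were chosen by name from the 55487 genes of the count table. They are Scn4b, Cacna1c, Cacnb2, Cacna2d1, Cacna1g, Hcn2 and Hcn4, and all 7 were found in the table and passed the filter on low counts. The hearts came from male mice, either wild type (Ctrl) or with a global CRISPR/Cas9 knockout (KO) of the long noncoding RNA Cardinal, listed in the table as Gm12295. Each genotype had either transverse aortic constriction (TAC), which narrows the aorta and overloads the left ventricle, or a sham operation without the ligature. RNA was taken from the apex of the heart 4 weeks after surgery, from 4 animals in each of 4 groups, written Ctrl sham, Ctrl TAC, KO sham and KO TAC. The age and strain of the animals are not given in the sources used here. The knockout was in every cell of the animal. RNA came from bulk tissue, so a level cannot be assigned to a cell type.

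A ventricular action potential starts when sodium channels open, and its plateau is carried by calcium entering through L-type channels, which also trigger contraction. The L-type channel is built from a pore subunit (here the product of Cacna1c), an intracellular beta subunit that brings it to the membrane (Cacnb2) and an extracellular alpha2delta subunit (Cacna2d1). Cacna1g encodes a T-type calcium channel pore, and Hcn2 and Hcn4 encode channels of the pacemaker current, which Hcn4 carries mainly in the sinoatrial node. Scn4b encodes a beta subunit of the sodium channel.

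The libraries held between 53169437 and 79404714 counts. Gm12295 was at 3.24 to 3.86 CPM (counts per 1000000 after TMM scaling) in Ctrl sham, 2.69 to 8.02 CPM in Ctrl TAC, 0.297 to 0.553 CPM in KO sham and 0.276 to 0.371 CPM in the libraries labelled KO TAC 1 to 3. The library labelled KO TAC 4 was at 4.55 CPM, against its label, and is written below as the library labelled KO TAC 4. The Ctrl TAC 2 library stood apart from the rest on the second principal component of the log2 CPM values (9.11% of the variance), at 62.5 where the others lay between −13.8 and 3.40. The tests and the counts of called genes were also computed without these libraries, whereas the level order, marker sums and correlations below include them. The defining markers of ventricular cardiomyocytes (Myl2, Myh6, Tnni3 and 5 others) were present in every library, while the summed level of 4 atrial markers was between 0.345 and 2.01 CPM per kilobase (kb) of exon, against 9150 or more for the ventricular list.

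TAC went with lower transcript levels of the L-type pore and beta subunit genes in both genotypes, and of Hcn2 in the KO. In Ctrl hearts Cacna1c fell by 0.37 on the log2 scale and Cacnb2 by 0.33, and in KO hearts Cacna1c fell by 0.35, Cacnb2 by 0.39 and Hcn2 by 0.41. No member rose. Of the 7 genes, 2 were lower in Ctrl TAC than in Ctrl sham at an adjusted p under 0.05, where 9.6% of the 18275 genes tested were called lower, and 3 were lower in KO TAC than in KO sham, where 16.5% of all genes were called lower. No member was called between the genotypes, either after sham surgery, where 0% of genes were called, or after TAC, where 2.68% were, and none in the genotype by surgery interaction, where 0.0109% were. The median log2 fold change of the 7 members was −0.15 in Ctrl and −0.35 in KO, against medians within 0.01 of 0 for all genes tested. Because the members were chosen with earlier results of these data known, the comparison with all genes is a description. The members were called by edgeR's quasi-likelihood test with Benjamini-Hochberg adjustment over all genes tested, which was the test for every adjusted p below.

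**Figure D1:**
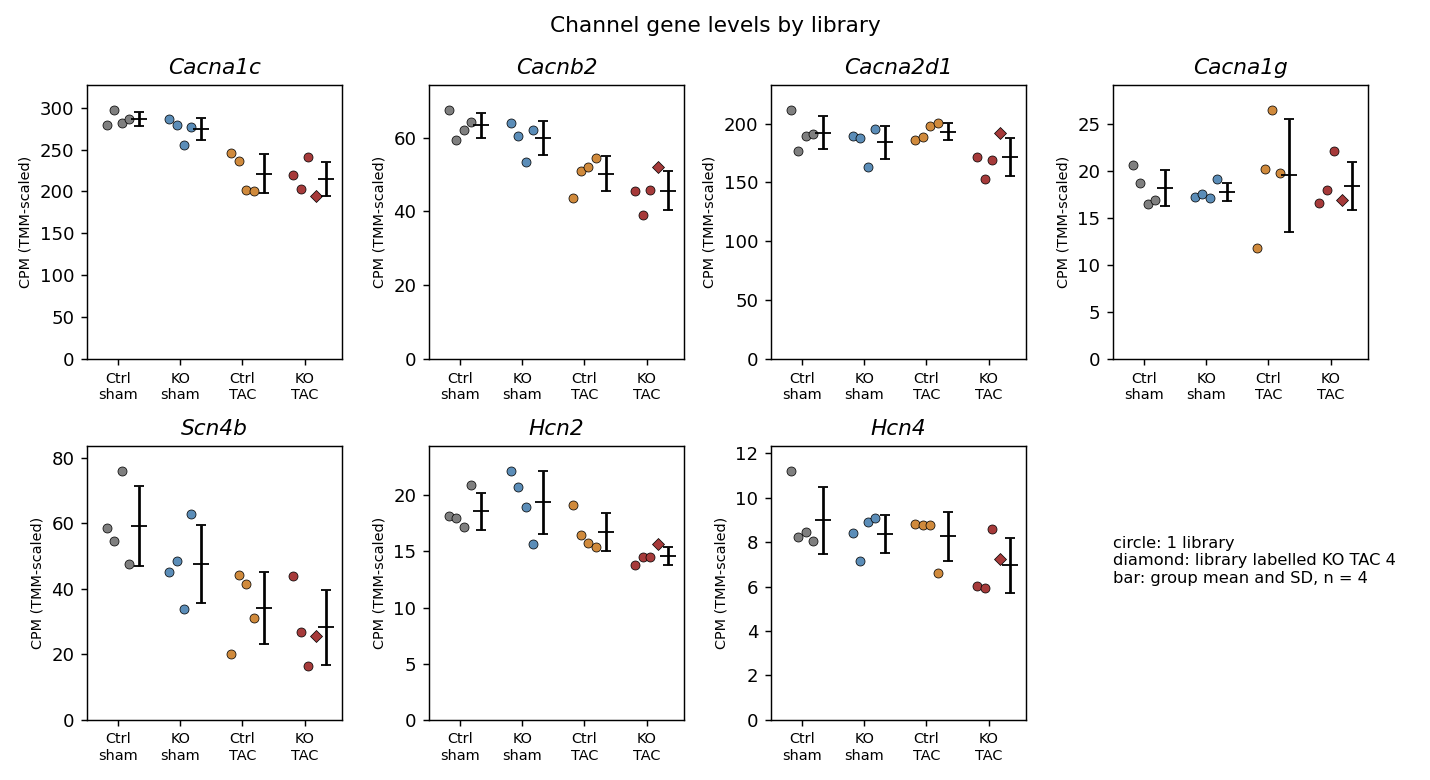
CPM of the 7 channel genes (vertical axes, each starting at 0) in the 16 libraries by group (horizontal axes), with 1 point a library and the group mean and SD at the right of each group (n = 4). Every TAC library lay below every sham library of its genotype for Cacna1c and Cacnb2, while the groups of Cacna2d1 and Cacna1g overlapped, and the library labelled KO TAC 4 is drawn as a diamond.

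The promoters of the L-type subunit genes are shown here because the pore and beta subunit genes fell after TAC and the alpha2delta subunit gene was not called. The sequences are RefSeq promoter windows of the build GRCm38.p6, which reach from 250 bases before an annotated start to 50 bases after it and are printed from 5′ to 3′ along the gene. An entry was found for 6 of the 7 members, with 9 start sites in all. Capitals mark matches, on either strand, to the GC box (GGGCGG), the E-box (CAGCTG), the cyclic AMP response element core (TGACG) and the NKX2-5 core (AAGTG). Also searched were the TATA box and the MEF2, GATA, TEAD and NFAT motifs, which had no match in the windows printed. Cacna1c lies on the minus strand of chromosome 6, and its first and second listed starts are at chr6:119196360-119196659 and chr6:119108446-119108745.
Cacna1c, first start: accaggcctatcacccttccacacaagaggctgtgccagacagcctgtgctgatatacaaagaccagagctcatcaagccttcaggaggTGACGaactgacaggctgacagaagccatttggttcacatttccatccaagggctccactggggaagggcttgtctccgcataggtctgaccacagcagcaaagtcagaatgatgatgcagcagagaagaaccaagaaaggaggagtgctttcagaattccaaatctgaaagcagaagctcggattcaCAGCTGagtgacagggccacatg
Cacna1c, second start: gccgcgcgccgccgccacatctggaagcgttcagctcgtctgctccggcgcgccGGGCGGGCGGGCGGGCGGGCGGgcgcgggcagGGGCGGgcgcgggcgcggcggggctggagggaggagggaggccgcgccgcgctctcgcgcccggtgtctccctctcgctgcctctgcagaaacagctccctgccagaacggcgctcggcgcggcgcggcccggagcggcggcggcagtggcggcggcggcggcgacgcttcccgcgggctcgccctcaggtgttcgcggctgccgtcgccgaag
The listed starts of Cacnb2, on the plus strand, are at chr2:14604056-14604355 and chr2:14823842-14824141.
Cacnb2, first start: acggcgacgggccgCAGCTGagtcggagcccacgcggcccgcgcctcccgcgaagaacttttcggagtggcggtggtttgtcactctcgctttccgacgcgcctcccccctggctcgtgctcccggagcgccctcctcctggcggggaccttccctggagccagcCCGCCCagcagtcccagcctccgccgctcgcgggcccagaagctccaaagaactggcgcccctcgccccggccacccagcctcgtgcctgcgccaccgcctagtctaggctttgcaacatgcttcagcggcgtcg
Cacnb2, second start: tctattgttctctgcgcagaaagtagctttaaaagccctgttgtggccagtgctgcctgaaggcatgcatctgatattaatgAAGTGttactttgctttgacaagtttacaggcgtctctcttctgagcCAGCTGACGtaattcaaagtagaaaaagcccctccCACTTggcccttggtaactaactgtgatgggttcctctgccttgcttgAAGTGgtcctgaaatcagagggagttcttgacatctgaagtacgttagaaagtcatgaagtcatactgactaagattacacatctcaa
The listed start of Cacna2d1, on the plus strand, is at chr5:15934441-15934740.
Cacna2d1: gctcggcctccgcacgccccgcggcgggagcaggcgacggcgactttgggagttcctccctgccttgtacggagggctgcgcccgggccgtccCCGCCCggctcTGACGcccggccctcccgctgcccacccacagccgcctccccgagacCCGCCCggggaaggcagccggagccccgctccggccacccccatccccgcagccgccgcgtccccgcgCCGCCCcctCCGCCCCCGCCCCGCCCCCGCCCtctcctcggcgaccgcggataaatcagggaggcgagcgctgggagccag

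The 5 windows differed in base composition. The GC content was 51.3% at the first and 81.3% at the second Cacna1c start, 71.7% and 44% at those of Cacnb2 and 80% at Cacna2d1, against a median of 52.7% over 32851 promoters. The second Cacna1c start held a run of GC boxes between positions −196 and −159, some of which overlap each other, and Cacna2d1 held 7 GC boxes between positions −157 and 1. A GC box was found in 35.7% of all promoters. An E-box stood at positions 28 to 33 of the first Cacna1c start and −236 to −231 of the first Cacnb2 start, and at −121 to −116 of the second Cacnb2 start, where it overlaps a TGACG match, and 16.3% of all promoters held one. The TGACG letters were in 20.8% of all promoters and AAGTG in 46.4%. The third Cacna1c start, at chr6:118757925-118758224, held none of the motifs searched. The counts are per gene and do not show which start was used, and a match is a run of letters and not a measured site.

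Cacna1c (chromosome 6, 118587240 to 119196418, minus strand, GRCm38), the pore of the L-type channel, was at 279, 297, 282 and 287 CPM in the Ctrl sham libraries 1 to 4 and at 245, 236, 202 and 201 CPM in Ctrl TAC. In KO sham it was at 286, 279, 255 and 276 CPM, and in KO TAC at 220, 203, 241 and 195 CPM, the last in the library labelled KO TAC 4. All 4 TAC libraries of each genotype thus lay below all 4 sham libraries. Cacna1c fell by 22.7% in Ctrl (log2 fold change −0.37, SE 0.072, 95% interval −0.52 to −0.22, adjusted p = 0.00117) and fell by 21.8% in KO (−0.35, SE 0.072, −0.51 to −0.20, adjusted p = 0.000838). The Ctrl fall did not pass the threshold once a term for the animals numbered from 25 was fitted (−0.23, adjusted p = 0.0720), a series that holds 4 libraries, all of them TAC, so no sham library shares it. Without the library labelled KO TAC 4 Cacna1c fell by 0.31 on the log2 scale in KO (adjusted p = 0.00437).

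Cacnb2 (chromosome 2, 14603088 to 14987908, plus strand), the beta subunit, was at 67.5, 59.4, 62.1 and 64.2 CPM in Ctrl sham and at 43.5, 50.9, 52.0 and 54.6 CPM in Ctrl TAC. The KO sham libraries were at 63.9, 60.5, 53.4 and 62.1 CPM, and the KO TAC libraries at 45.6, 39.0, 45.9 and 52.0 CPM. Again no TAC library reached the lowest sham library of its genotype, with the nearest pair in KO at 52.0 and 53.4 CPM. Cacnb2 fell by 20.6% in Ctrl (log2 fold change −0.33, SE 0.082, adjusted p = 0.00748) and by 23.9% in KO (−0.39, SE 0.082, adjusted p = 0.00112). Both falls were called in all 16 fits that left out 1 library and in the 8 other settings tried. Exons of 3 genes on the opposite strand, Gm10848, Gm10849 and Gm13269, cover 0.839%, 4.67% and 1.81% of the Cacnb2 exons, and the strand setting of the counting is not given in the sources used here.

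Every TAC library lay below every sham library for 3 members in Ctrl (Cacna1c, Cacnb2 and Scn4b) and for 2 in KO (Cacna1c and Cacnb2), as it did for 9.97% of all genes in Ctrl and 16.6% in KO. Most markers of ventricular cardiomyocytes moved in the same direction. Of 8 such markers, 5 were called lower and 1 higher in Ctrl TAC, against 9.6% and 10.4% of all genes. In KO TAC 6 were called lower and 1 higher, against 16.5% and 17.8% of all genes. With Ctrl TAC 2 and the library labelled KO TAC 4 left out, 3 were lower in Ctrl TAC. Over all genes 1636 were then called lower, against 1754 with every library. Their summed level was 12176 to 13632 CPM per kb in Ctrl sham, 12379 to 13274 in KO sham, 10278 to 11416 in Ctrl TAC and 9150 to 9386 in KO TAC. The summed level of 6 fibroblast markers was 84.6 to 92.0 CPM per kb in Ctrl sham, 82.8 to 90.0 in KO sham, 108 to 159 in Ctrl TAC and 155 to 190 in KO TAC, and that of 5 macrophage markers was 80.0 to 109 in Ctrl sham, 80.7 to 112 in KO sham, 112 to 147 in Ctrl TAC and 122 to 182 in KO TAC. Over all libraries the summed level was 90.7 to 116 CPM per kb for 5 endothelial markers. The sum of 8 smooth muscle and pericyte markers was 199 to 221 in Ctrl sham and 172 to 197 in Ctrl TAC. In KO sham it was 194 to 204 and in KO TAC 175 to 203. For 8 markers of neurons and glia the sum was 3.10 to 3.47 in Ctrl sham and 2.47 to 4.42 in Ctrl TAC. It was 3.02 to 3.63 in KO sham and 2.17 to 2.68 in KO TAC. The ventricular markers did not all move together. The mean of Actn2 was 1723 CPM in Ctrl sham and 2035 in Ctrl TAC, and that of Irx4 was 26.4 in KO sham and 32.4 in KO TAC. The part of these shifts in the channel gene results was not tested. Fewer cells of a type, less RNA per cell and changes of single marker genes cannot be told apart in bulk tissue.

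Cacna2d1 (chromosome 5, 15934691 to 16374511, plus strand), the alpha2delta subunit, was not called after TAC. It was at 212, 177, 190 and 191 CPM in Ctrl sham and at 186, 188, 198 and 200 CPM in Ctrl TAC, ranges that overlap throughout. In KO sham it was at 189, 188, 163 and 196 CPM and in KO TAC at 171, 153, 169 and 192 CPM. The log2 fold change was 0.01 in Ctrl (95% interval −0.14 to 0.15, adjusted p = 0.968) and −0.10 in KO (−0.25 to 0.05, adjusted p = 0.286). Between the genotypes after TAC it was −0.17 (−0.32 to −0.03, adjusted p = 0.189). Leaving out the library labelled KO TAC 4, the highest of its group, gave −0.23 (adjusted p = 0.0885). The 3 remaining KO TAC libraries lay below all 4 Ctrl TAC libraries, as they also did for Hcn2. Such a split is easier to reach with fewer libraries. The share of all genes that showed it was not computed, so it is no result about these genes. With all libraries, 912 of 18275 genes had every KO TAC library below every Ctrl TAC library, and Cacna2d1 and Hcn2 did not. Counting both directions, 10.5% of genes did not overlap between these groups.

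On the scale of CPM per kb of exon, the level of Cacna2d1 was 1.15 ± 0.114 times that of Cacna1c in Ctrl sham and 1.14 ± 0.0489 times in KO sham, and 1.51 ± 0.210 and 1.37 ± 0.214 times in Ctrl TAC and KO TAC (SD, n = 4). The same ratio for Cacnb2 was 0.355 ± 0.0279 in Ctrl sham, 0.350 ± 0.0112 in KO sham, 0.369 ± 0.0683 in Ctrl TAC and 0.343 ± 0.0576 in KO TAC. The group means of the first ratio were higher in both TAC groups and those of the second lay between 0.343 and 0.369, a description with no test. In KO TAC without the library labelled KO TAC 4 the first ratio was 1.27 ± 0.0669 and the second 0.315 ± 0.0147, and in Ctrl TAC without Ctrl TAC 2 they were 1.56 ± 0.227 and 0.377 ± 0.0813 (SD, n = 3).

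Cacna1g (chromosome 11, 94408391 to 94474198, minus strand), the T-type pore, did not differ detectably between groups. It was at 20.6, 18.8, 16.5 and 16.9 CPM in Ctrl sham and at 11.9, 20.2, 26.6 and 19.8 CPM in Ctrl TAC. The KO sham libraries were at 17.3, 17.6, 17.1 and 19.2 CPM and those of KO TAC at 16.6, 17.98, 22.2 and 17.0 CPM. The Ctrl TAC group held both the lowest and the highest of the 16 values, with a coefficient of variation of 30.7% against 5.37% to 13.8% in the other groups. The log2 fold change after TAC was 0.11 in Ctrl (95% interval −0.26 to 0.47, adjusted p = 0.730) and 0.05 in KO (−0.32 to 0.42, adjusted p = 0.858). Leaving out Ctrl TAC 1, the lowest library, gave 0.28 in Ctrl (adjusted p = 0.0995).

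**Figure D2:**
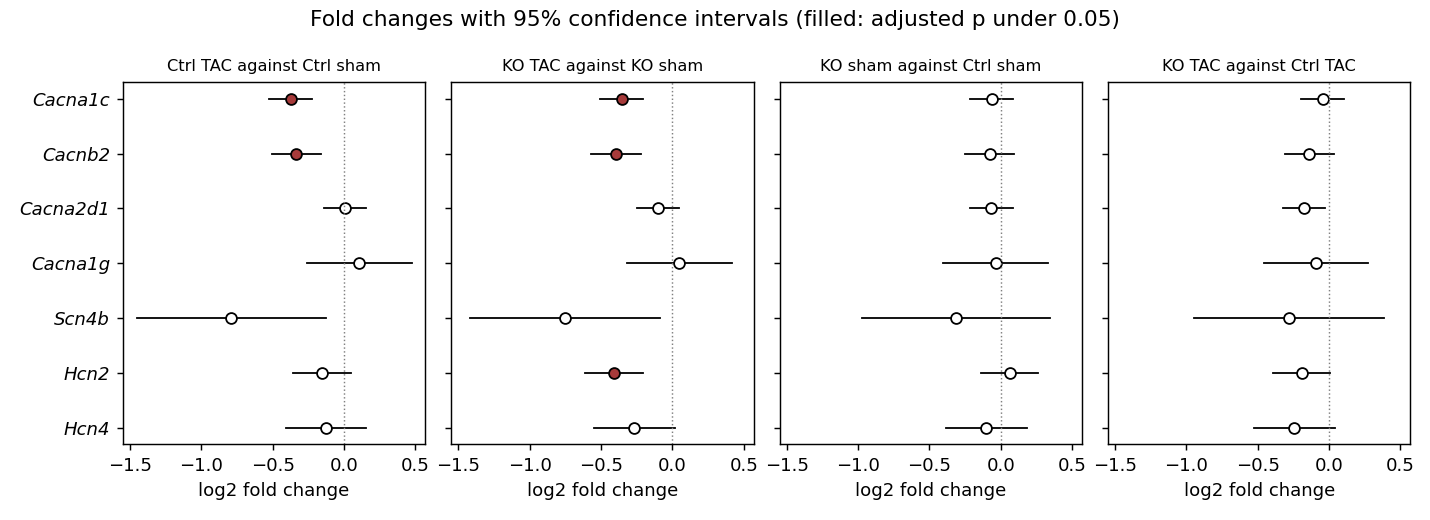
Log2 fold changes of the 7 channel genes (horizontal axes) with 95% confidence intervals (lines) in the 4 comparisons of groups, with filled points for an adjusted p under 0.05. Filled points are found for Cacna1c and Cacnb2 in both TAC comparisons and for Hcn2 in the KO one, and the widest intervals are those of Scn4b.

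Hcn2 (chromosome 10, 79716634 to 79736108, plus strand), a pacemaker channel gene also expressed in ventricle, was at 18.2, 17.95, 17.2 and 20.96 CPM in Ctrl sham and at 19.2, 16.5, 15.8 and 15.4 CPM in Ctrl TAC. It was at 22.2, 20.8, 19.0 and 15.7 CPM in KO sham and at 13.8, 14.5, 14.5 and 15.7 CPM in KO TAC. The KO groups met at their edge, where the lowest sham library and the library labelled KO TAC 4 were both at 15.7 CPM. Hcn2 fell by 24.7% in KO (log2 fold change −0.41, SE 0.096, 95% interval −0.61 to −0.21, adjusted p = 0.00271) and fell by 0.45 on the log2 scale without that library (adjusted p = 0.00375). This fall was called in all 16 fits that left out 1 library. It was not called once a term for the animals numbered from 33 was fitted (−0.16, adjusted p = 0.247), a series of 4 sham libraries that includes 3 of the KO sham group.

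In Ctrl the log2 fold change of Hcn2 was −0.15 (95% interval −0.35 to 0.05, adjusted p = 0.294). The difference between the falls of the 2 genotypes, tested as the interaction, was −0.26 (−0.54 to 0.03, unadjusted p = 0.0746, adjusted p = 0.500), so a difference between the genotypes in the response of Hcn2 was not shown. Between KO TAC and Ctrl TAC it was −0.19 (−0.39 to 0.01, adjusted p = 0.293), or −0.23 with the library labelled KO TAC 4 left out (adjusted p = 0.259).

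Hcn4 (chromosome 9, 58823412 to 58863175, plus strand), the main pacemaker channel gene of the sinoatrial node, was the lowest member per length. It was at 11.2, 8.22, 8.43 and 8.06 CPM in Ctrl sham and at 8.83, 8.79, 8.77 and 6.63 CPM in Ctrl TAC. The KO sham libraries were at 8.39, 7.17, 8.88 and 9.09 CPM and those of KO TAC at 6.04, 5.94, 8.59 and 7.26 CPM. In each comparison the groups overlapped. The log2 fold change after TAC was −0.13 in Ctrl (95% interval −0.41 to 0.16, adjusted p = 0.572) and −0.27 in KO (−0.55 to 0.02, adjusted p = 0.139). Without the KO TAC 3 library, the highest of its group, it was −0.38 in KO (adjusted p = 0.0402). Of 24 settings this was the 1 that called Hcn4 in KO. The summed level of 10 conduction system markers was 24.4 to 31.6 CPM per kb in Ctrl sham and 27.8 to 29.1 in Ctrl TAC. It was 25.4 to 28.4 in KO sham and 26.9 to 32.0 in KO TAC. The largest part of this sum was Irx3, with a mean of 15.5 of 28.0 CPM per kb in Ctrl sham, so the sum mostly follows that gene. Of 8 conduction system markers that passed the filter, 1 was called higher and 0 lower in Ctrl TAC, against 10.4% and 9.6% of all genes. In KO TAC 3 were called higher and 2 lower, against 17.8% and 16.5% of all genes. Without the library labelled KO TAC 4, 1 was called higher and 1 lower in KO TAC. Per kb of exon, Hcn4 was at 0.254 ± 0.0508 of the level of Hcn2 in Ctrl sham, 0.231 ± 0.0547 in KO sham, 0.259 ± 0.0311 in Ctrl TAC and 0.249 ± 0.0422 in KO TAC (SD, n = 4).

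Scn4b (chromosome 9, 45138395 to 45154152, plus strand), the sodium channel beta subunit gene, varied most between libraries of a group. It was at 58.5, 54.55, 76.1 and 47.6 CPM in Ctrl sham and at 20.1, 44.2, 41.5 and 31.2 CPM in Ctrl TAC, with no overlap. It was at 45.0, 48.4, 33.9 and 62.97 CPM in KO sham and at 43.8, 26.9, 16.5 and 25.6 CPM in KO TAC, where the KO TAC 1 library lay among the sham values. The coefficient of variation was 20.5% to 40.3% across the 4 groups, against 2.81% to 10.4% for Cacna1c. The log2 fold change was −0.79 in Ctrl (95% interval −1.45 to −0.12, adjusted p = 0.0927) and −0.75 in KO (−1.42 to −0.09, adjusted p = 0.0770), larger in size than those of Cacna1c but short of the threshold. The DESeq2 Wald test gave adjusted p-values of 0.0486 in Ctrl and 0.0425 in KO, and leaving out KO TAC 1 gave −1.05 in KO (adjusted p = 0.0168).

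**Figure D3:**
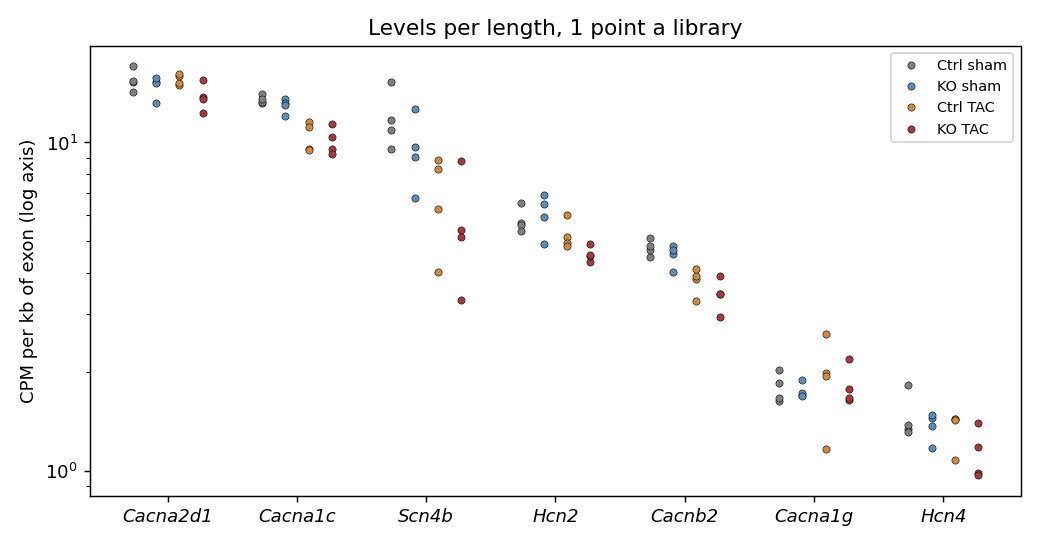
Levels of the 7 channel genes in CPM per kb of exon (vertical log axis), with 1 point for each of the 16 libraries, coloured by group. The genes are ordered by their mean in Ctrl sham, from Cacna2d1 at 15.5 to Hcn4 at 1.47 CPM per kb.

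Per kb of exon, the order of the mean levels was the same in all 4 groups, with Cacna2d1 first, followed by Cacna1c, Scn4b, Hcn2, Cacnb2, Cacna1g and Hcn4. The length used is the union of all annotated exons, 21191 bases for Cacna1c and 12416 for Cacna2d1, and the order depends on it. In CPM, without the length, Cacna1c was above Cacna2d1 in Ctrl sham (mean 286 against 192). In Ctrl sham Cacna2d1 was at 15.5 ± 1.15, Cacna1c at 13.5 ± 0.380, Scn4b at 11.9 ± 2.44, Hcn2 at 5.82 ± 0.514, Cacnb2 at 4.79 ± 0.260, Cacna1g at 1.80 ± 0.186 and Hcn4 at 1.47 ± 0.245 CPM per kb (SD, n = 4). The ranges of Scn4b and Cacna1c overlapped there, as did those of Hcn4 and Cacna1g, and the other neighbours did not. In the TAC groups the range of Scn4b (4.03 to 8.86 CPM per kb in Ctrl and 3.31 to 8.78 in KO) overlapped that of Hcn2 below it and no longer that of Cacna1c. Hcn4 overlapped Cacna1g in Ctrl TAC and not in KO TAC. In KO sham neighbours overlapped from Cacna2d1 down to Hcn2.

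After sham surgery no member was called between KO and Ctrl, all with an adjusted p of 1.00, and the log2 fold changes lay between −0.32 (Scn4b) and 0.06 (Hcn2). Over all genes that comparison called 0 by edgeR, with 479 at an unadjusted p under 0.05, and 3 by DESeq2. Gm12295 itself was thus not called by edgeR, though it was at 3.24 to 3.86 CPM in Ctrl sham and 0.297 to 0.553 CPM in KO sham. The count of 0 therefore does not show that no gene differed. With the library labelled KO TAC 4 left out of the fit, 1 gene was called. After TAC the log2 fold changes of KO against Ctrl lay between −0.28 for Scn4b and −0.04 for Cacna1c, and the smallest adjusted p was the 0.189 of Cacna2d1. The sign was not fixed for Cacna1c, at 0.03 with Ctrl TAC 2 and the library labelled KO TAC 4 left out, or for Cacna1g, at 0.09 without Ctrl TAC 3 and 0.13 with the term for the animals numbered from 25. The 95% interval for Cacna1c after TAC, −0.19 to 0.11, was narrower than that for Scn4b, −0.95 to 0.38. Both include the library labelled KO TAC 4, so neither bounds a difference between the genotypes. The animals numbered from 25 were Ctrl TAC 2, 3 and 4 and the library labelled KO TAC 4. After TAC, animal series and genotype can thus hardly be told apart. With the series as a term, the genes called between KO TAC and Ctrl TAC went from 489 to 12.

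The rest of the sodium, calcium and pacemaker channel families was read from a list of 44 genes chosen by name, members included, of which 33 passed the filter. In Ctrl TAC 4 of the 33 were higher and 6 lower, where 10.4% of all genes were called higher and 9.6% lower. In KO TAC 4 were higher and 7 lower, where 17.8% and 16.5% of all genes were. The counts were the same without the library labelled KO TAC 4, when 34 genes passed the filter. The family's median log2 fold change was 0.11 in Ctrl and −0.11 in KO.

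Among the sodium channel genes, Scn3b, which encodes another beta subunit, rose by 0.68 in Ctrl (adjusted p = 0.0138) and 1.07 in KO (adjusted p = 0.000154) on the log2 scale. Scn10a, a sodium channel pore best known from sensory neurons, fell by 1.28 in Ctrl (adjusted p = 0.000393) and by 1.78 in KO (adjusted p = 8.21e-06), from 0.268 CPM per kb in Ctrl sham to 0.110 in Ctrl TAC.

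Among the calcium channel genes, the beta subunit genes Cacnb1 and Cacnb3 rose while Cacnb2 fell. Cacnb1 rose by 0.64 in Ctrl (adjusted p = 0.00105) and 1.00 in KO (adjusted p = 4.95e-06), and Cacnb3 by 0.48 (adjusted p = 0.00370) and 0.79 (adjusted p = 1.82e-05). Cacnb2 was still the highest of the beta subunit genes per length, with 3.80 CPM per kb in Ctrl TAC against 1.90 for Cacnb1 and 1.03 for Cacnb3, and in KO TAC 3.45 against 2.32 and 1.29. Without the library labelled KO TAC 4, Cacnb3 was also higher in KO TAC than in Ctrl TAC (0.41, adjusted p = 0.0474; 0.33 and 0.0974 with it), and it was not called with Ctrl TAC 2 also left out (0.46, adjusted p = 0.0709).

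The pore gene Cacna1s, best known from skeletal muscle, fell by 0.77 in Ctrl (adjusted p = 8.03e-05) and by 1.09 in KO (adjusted p = 8.00e-07), and 20.0% of its exons are covered by the opposite-strand gene Gm37759. Cacna2d2 fell by 0.50 in Ctrl (adjusted p = 0.00692) and by 0.51 in KO (adjusted p = 0.00377). Cacng6, a gamma subunit gene, fell by 2.09 in Ctrl and by 3.93 in KO (adjusted p = 0.000160 and 3.35e-07), from 95 to 154 counts a library in Ctrl sham to 16 to 55 in Ctrl TAC and from 93 to 145 in KO sham to 6 to 15 in KO TAC. It was the 1 family gene called between KO TAC and Ctrl TAC (−1.76, adjusted p = 0.0294), and was not called there without the library labelled KO TAC 4 (−1.52, adjusted p = 0.0688). Of the 4 pacemaker channel genes, Hcn2 was the most abundant per length and the 1 called.

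**Figure D4:**
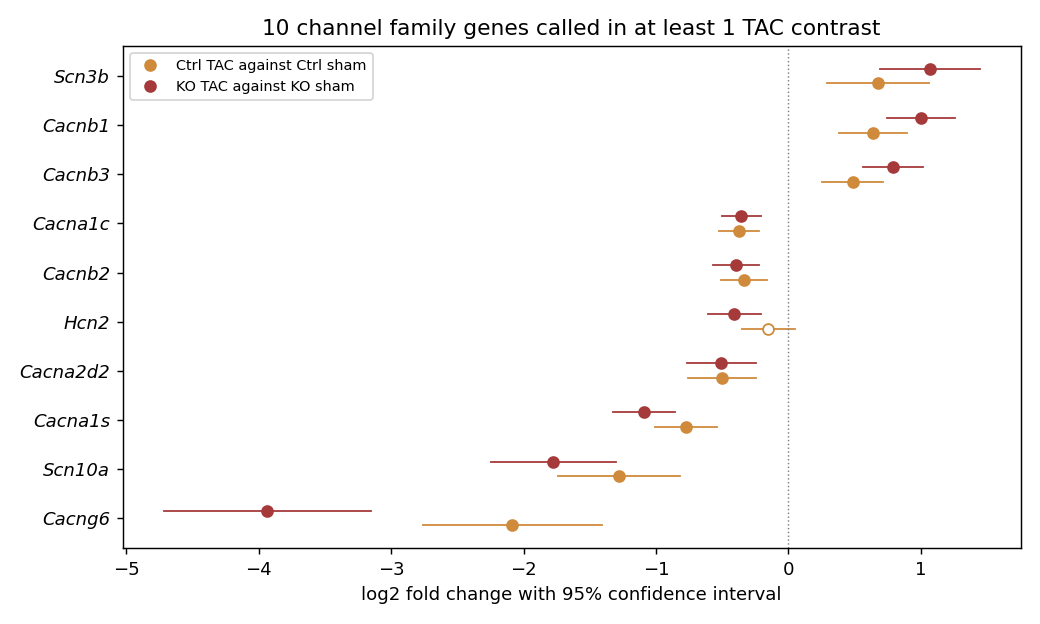
Log2 fold changes after TAC (horizontal axis) with 95% confidence intervals for 10 channel family genes called in at least 1 genotype, in Ctrl and in KO, with open points where the adjusted p was 0.05 or more. Scn3b, Cacnb1 and Cacnb3 lie to the right of 0 and the other 7 to the left, down to Cacng6 at −2.09 and −3.93.

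Of 25 genes whose products bind or regulate these channels, 24 passed the filter. In Ctrl TAC 4 were higher and 2 lower, where 10.4% of all genes were called higher and 9.6% lower, and in KO TAC 5 were higher and 3 lower, where 17.8% and 16.5% were. The KO counts are near these shares of all genes. Fgf13, a fibroblast growth factor homologous factor that binds sodium channels, fell by 0.62 in Ctrl (adjusted p = 0.000153) and by 0.71 in KO (adjusted p = 1.56e-05), and Akap7, an anchoring protein for protein kinase A near the L-type channel, fell by 0.38 (adjusted p = 0.00262) and by 0.37 (adjusted p = 0.00168). Bin1, a membrane-bending protein of the transverse tubules, rose by 0.58 (adjusted p = 0.000161) and 0.69 (adjusted p = 9.95e-06). Cav3, the caveolin of muscle, rose by 0.46 in Ctrl (adjusted p = 1.72e-05) and 0.36 in KO (adjusted p = 7.45e-05).

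Further partners were called in KO. The calmodulin gene Calm2 rose by 0.40 there (adjusted p = 1.09e-05) and was higher than in Ctrl TAC (0.24, adjusted p = 0.0210). Gem, a small GTPase that lowers L-type current, rose by 0.83 in KO (adjusted p = 0.00284), and Ank2, the ankyrin that anchors membrane transporters, fell by 0.35 (adjusted p = 0.00904). With Ctrl TAC 2 and the library labelled KO TAC 4 both left out, Calm2 was not called between the genotypes after TAC (adjusted p = 0.0818), and Gem was (0.85, adjusted p = 0.0390). No partner was called in the interaction.

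The genes whose log2 CPM most resembled each member's over the 16 libraries were found among 10205 genes, as a description in which the points share group and library. For Cacna1c they were Gart (Pearson r = 0.94), Gpr137c (0.94) and Akt2 (0.94), and for Cacnb2 they were Ghr (0.96), Kcnj3 (0.96) and Ppp2r3a (0.94). Scn4b was most like Art5, Slc22a3 and Rab9 (0.92 each), Hcn2 most like Fndc5 (0.88), Gatb (0.88) and Ret (0.87), and Hcn4 most like Mrtfb, Kcnj12 and Lrig1 (0.84 each). Cacna2d1 was most like Atg14 (0.84), Rnls (0.81) and Cul5 (0.81), and Cacna1g most like Tmem87b (0.85), Ppp1r35 (0.83) and Zfp410 (0.77). Among the members themselves the highest r was the 0.75 of Scn4b and Cacnb2. With the group means removed it was the 0.89 of Cacnb2 and Cacna2d1, whereas that of Cacna1c and Cacnb2 went from 0.70 to −0.25.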

How the data were processed

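Poly(A) libraries of the heart apex from 16 mice were read as pairs of 150 bases. The deposited values are raw counts per gene; per the labels, the authors used cutadapt 2.3, FastQC, HISAT2 2.1.0 and edgeR 3.26.1 with GRCm38. The counting program, its annotation and its strand setting are not given in the sources used here. Gene IDs were matched to GENCODE M21 (55141 of 55487, and 0.0131% of counts lay in unmatched IDs).

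Genes were filtered with filterByExpr, scaled by TMM and tested in 1 model of 4 groups with edgeR 4.0.16 (quasi-likelihood, robust; R 4.3.3, limma 3.58.1), over 18275 genes, with Benjamini-Hochberg adjustment and a threshold of 0.05. The tests were checked on simulated data. CPM use TMM-scaled library sizes, and CPM per kb the union of exons. Log2 CPM had a prior count of 2. Intervals cover the spread between these libraries only. The alternatives were RLE scaling, DESeq2 1.42.0, other filters, a threshold of 0.01, terms for animal-number series, fits to 2 groups, and libraries left out. Family, partner and marker counts and ratios of levels without the doubted libraries were added after seeing the data. Named were the 7 members, family genes called in a comparison or most abundant of their kind, partners called, and for each member the 3 genes of highest r (average log2 CPM 2 or more). The members and lists were chosen with earlier results of these data known. Some genes that this rule covers are counted in the lists and are not reported here by name.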

Additional observations from a re-analysis of the deposited data

Results flagged for a closer look

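Within-group extremes were looked for in 28 sets of 4 libraries (7 genes in 4 groups) with Dixon's test, by which chance marks about 1 set in 20. Hcn4 was marked in 2 of them. Ctrl sham 1, at 11.2 CPM, stood above the other Ctrl sham libraries, the next of which was at 8.43 CPM, and Ctrl TAC 4, at 6.63 CPM, stood below the other Ctrl TAC libraries, the next of which was at 8.77 CPM. Hcn4 was not called between Ctrl TAC and Ctrl sham with or without these libraries. No member passed the test of the interaction.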

How the results depend on the processing

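No member's called change turned direction under any alternative. No paired analysis was possible because the labels give an animal number and no replicate number shared between groups. Without Ctrl TAC 2 the count of genes called between KO TAC and Ctrl TAC fell to 63, and the counts over the fits without 1 library ranged from 63 to 733. Over the same fits the sham comparison ranged from 0 to 2 genes and the interaction from 0 to 18. In Ctrl TAC against Ctrl sham 2076 genes were called at 0.01, and 1 member (Cacnb2) with the series starting with 25 as a term. The sham comparison called 3 genes by DESeq2, 2 in the fit to its 2 groups and 1 with Ctrl TAC 2 and KO TAC 4 left out. KO TAC against Ctrl TAC called 1180 by DESeq2, 285 with no filter, 19 at 0.01, 12 with the series term, 154 in the fit to 2 groups and 109 with both libraries left out. The interaction called 132 by DESeq2, 1 with no filter, and 0 at 0.01, with either animal-number term and with both libraries left out. The cause of these shifts was not tested. Of the members, Scn4b was called in 1 of 24 settings in Ctrl and in 3 of 24 in KO. Hcn2 in KO was called in 23 of 24, Hcn4 in KO in 1 of 24, and no member in any setting of the sham, KO TAC against Ctrl TAC or interaction comparisons.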
